A study of Mus musculus with 14 samples.

Results

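Bone morphogenetic protein (BMP) signalling was followed through 10 genes: the ligands Bmp2 and Bmp4, the inhibitors Smad6, Smad7, Bambi and Grem1, and the Id genes Id1, Id2, Id3 and Id4. They were chosen by name, as the genes whose symbol the platform annotation gives to a probe, and all 10 were found among the 19532 named genes, on 15 of the 41174 probes. The arrays were 2-colour Agilent arrays that set 1 sample's RNA, labelled with Cy5, against a universal mouse reference labelled with Cy3, and each value is read here as a log2 ratio of the sample to that reference. Neither the base nor the direction of the deposited ratios is stated, and the direction is assumed from the dyes in the labels. Fibroblasts from Col3a1 knockout mice, which lack the mouse's own type III collagen chain, carried either transfected WT Col3a1 (3 arrays, numbered 1, 3A and 3B) or transfected Tsk2 Col3a1 (3 arrays, numbered 1 to 3), so every fibroblast sample shares the knockout. Total skin came from female mice of 4 weeks of age, with 4 Tsk2 mice and 4 WT mice. Tsk2 is a tight-skin mutant whose allele lies in Col3a1, and the series title names the mice Tsk2/+. Neither the labels nor the design text names the strain, the promoter behind the transfected gene or the number of fibroblast lines. Whether the 3 samples of a fibroblast group came from separate cultures is not labelled either, so their p-values measure only a spread between samples that may be technical.

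BMP ligands bind pairs of type I and type II receptor kinases, which phosphorylate Smad1, Smad5 and Smad9, and these move to the nucleus with Smad4 and turn on target genes. The Id genes are among the best known direct targets, and their products bind E proteins and keep them off DNA. Smad6 and Smad7, which block the receptors from inside the cell, and Bambi, a membrane protein built like a type I receptor without its kinase, are themselves induced by the pathway and act as feedback inhibitors. Grem1 is a secreted antagonist that binds BMP ligands outside the cell. In skin, BMP signals hold hair follicle stem cells at rest and are needed for the hair shaft to differentiate, and in fibrosis the pathway is often set against TGF-beta.

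Smad6 and Id4 are shown by their promoters because both passed the test for a Tsk2 difference that was not the same in skin and fibroblasts. The sequences are the 250 bases before the RefSeq start site in GRCm38.p6, written 5′ to 3′ on the gene's strand, in lower case with the BMP Smad site GGCGCC in capitals. Smad6 lies on the minus strand (chr9:64022060-64022309) and Id4 on the plus strand (chr13:48260866-48261115).
Smad6: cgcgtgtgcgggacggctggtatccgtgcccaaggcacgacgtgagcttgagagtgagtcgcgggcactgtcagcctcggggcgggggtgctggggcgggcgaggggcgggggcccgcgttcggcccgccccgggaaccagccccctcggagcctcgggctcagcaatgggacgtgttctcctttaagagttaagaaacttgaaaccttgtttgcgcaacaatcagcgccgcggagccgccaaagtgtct
Id4: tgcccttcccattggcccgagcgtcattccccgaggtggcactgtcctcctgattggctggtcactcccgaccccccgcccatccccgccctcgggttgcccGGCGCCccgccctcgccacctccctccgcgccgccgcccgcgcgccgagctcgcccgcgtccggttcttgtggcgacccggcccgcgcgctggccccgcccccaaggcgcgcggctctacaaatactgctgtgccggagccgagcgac
Promoter windows of 300 bases, which run on past the start site, were given for 6 of the 10 genes (Bmp4, Grem1, Id2, Id3, Id4 and Smad6). GGCGCC, which reads the same on both strands, was found in 3 of these 6, with its first base at -148 from the start site in Id4, at -231 in Id2 and at -78 in Grem1, against 11.9% of all 32851 windows. The 4-letter Smad4 site GTCT, on either strand, was found in 5 of the 6, with 2 matches in Smad6 and 0 in Id4, but 88.0% of all windows hold it. The pair of GGCGCC and, after a spacer of 5 bases, GTCT, searched on both strands, was in 0 of the 6 windows and in 0.073% of all. The 6 windows were 60.0% to 73.3% G or C, and the shares over all windows were not matched for this content. These matches describe letters in the window and were not tested against the expression values.

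Several features of the arrays bear on these genes. An exact 0 was listed for 312 to 12391 probes of an array, and the most, 30.1% of probes, were in WT skin replicate 2. Values that occur 50 times or more on their array, called repeated values here, made up 33.8% to 46.7% of each array. Among the 15 probes, the second Bambi probe held such values on 13 of 14 arrays, and the Smad7 probe and 1 of the 3 Id2 probes on 1 array each. Col3a1 was at -2.31 ± 0.074 in fibroblasts given the WT gene and -2.25 ± 0.063 in those given the Tsk2 gene (SD, n = 3 each), and at 1.59 ± 0.51 in WT and 2.37 ± 0.20 in Tsk2 skin (SD, n = 4 each), so its level does not separate the groups in cells, and whether its probes read the transfected copy is not known. The tissue labels were set against markers. The mean of 8 epidermal genes lay between 4.50 and 5.96 in skin and between 0.33 and 0.72 in fibroblasts. The mean of 7 dermal fibroblast genes lay between 0.91 and 0.96 in WT-transfected fibroblasts and between 1.66 and 2.44 in WT skin. Within this list Lum, Dcn, Dpt, Col1a1 and Col1a2 were at 2.58, 1.23, 1.83, -0.042 and -0.50 in WT-transfected fibroblasts. In WT skin these genes were higher, at 5.80, 1.65, 3.73, 2.72 and 1.07. Pdgfra and Pdgfrb went the other way, at -0.013 and 1.46 in WT-transfected fibroblasts against -1.69 and 0.06 in WT skin. The mean of this list therefore does not set the cells apart from skin as fibroblasts, and its genes are divided.

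Comparison of the WT skin with the WT-transfected fibroblasts places the genes before any Tsk2 difference. Bmp4, Id2 and Smad6 were higher in skin and Grem1 and Smad7 lower under every alternative run, while the place of Bmp2, Bambi and Id4 depended on the normalization. With limma and Benjamini-Hochberg adjustment over all genes, 9 of the 10 passed an adjusted p of 0.05, 7 higher and 2 lower in skin, where 44.5% of all genes passed (24.4% higher and 20.0% lower), so a call is common in this contrast. The count was 6 after quantile normalization, 8 with a trended and robust prior and from 7 to 9 without 1 array. RNA of cells and skin was extracted with different kits, and system and kit cannot be told apart.

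The ligand Bmp4 read -2.56, -2.42 and -2.43 in the 3 WT-transfected fibroblast samples and 0.28, 0.11, 0.26 and -0.04 in the 4 WT mice, a difference of 2.62 ± 0.13 (SE; adjusted p = 6.44e-09 by limma). Id2 was higher in WT skin by 2.78 ± 0.18 and Id4 by 2.36 ± 0.27. Grem1 read 2.03, 2.01 and 2.17 in WT-transfected fibroblasts and -1.05, -1.62, -1.16 and -1.25 in WT skin, 10.1-fold lower in skin. The groups lie far apart for all of these genes. Smad6 and Bambi were each higher in WT skin by 1.41, and Smad7 was lower, with a difference of -1.09 ± 0.30 (adjusted p = 0.00951 by limma), or -2.07 after quantile normalization. Bmp2 was higher by 0.75 (adjusted p = 0.0410 by limma) and Id1 by 0.64, while Id3 differed by 0.30 and did not pass (adjusted p = 0.278 by limma). After quantile normalization Bmp2 turned to -0.46 and Bambi and Id4 were at 0.35 and 0.18 and lost their calls, so the order of skin and fibroblasts is not settled for these 3 genes. Bmp2 kept its call in 10 of 21 alternatives and Id1 in 19 of 23.

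The order of the 4 groups differed from gene to gene. Smad6 was lowest in Tsk2 skin, between -0.92 and -0.56, then WT-transfected and Tsk2-transfected fibroblasts, with WT skin highest, between 0.06 and 1.54. Neighbouring groups were apart except Tsk2-transfected fibroblasts and WT skin, which overlapped. For Smad7 Tsk2 skin was again lowest and WT skin next, with no overlap, and the fibroblast groups were highest and overlapped each other. Bambi was lowest in Tsk2 skin and highest in WT skin, and both fibroblast groups lay between, overlapping each other, with WT-transfected fibroblasts also overlapping Tsk2 skin. For Bmp2 the lowest group was Tsk2-transfected fibroblasts, between 0.52 and 0.89, and WT-transfected fibroblasts and Tsk2 skin overlapped above it. Id4 ran from WT-transfected fibroblasts to WT skin, and its 2 Tsk2 groups lay between and overlapped. Bmp4 and Id2 set both fibroblast groups below both skin groups, and the skin groups overlapped. Grem1 set both skin groups below both fibroblast groups, and within each system its WT and Tsk2 ranges overlapped. Id3 showed overlap between every pair of neighbours, and Id1 between all but Tsk2-transfected fibroblasts and WT skin.

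**Figure D1:**
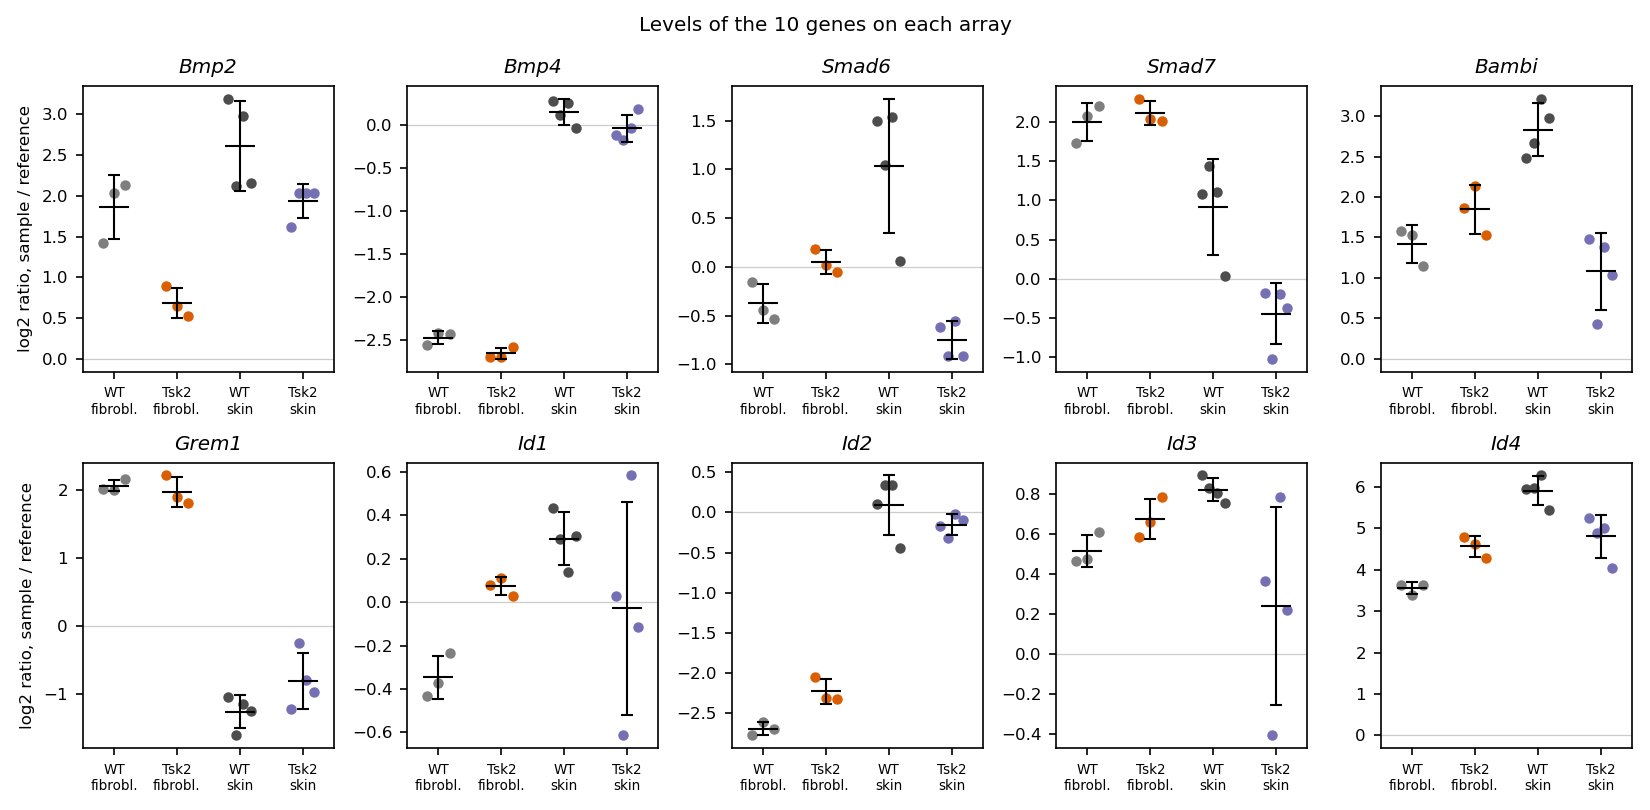
Log2 ratio of sample to reference (vertical axis) for each of the 10 genes on each array, with 3 arrays per fibroblast group and 4 per skin group; points are arrays, horizontal marks the group mean and bars 1 SD. Smad6, Smad7 and Bambi lie lowest in Tsk2 skin, and Bmp2 lies lowest in Tsk2-transfected fibroblasts.

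Whether the Tsk2 allele changes these genes in cells was asked in the transfected fibroblasts. None of the 10 genes passed the test, where 10 of 19532 genes (0.0512%) did. Bmp2 was lower in all 3 Tsk2-transfected samples, and Id4, Id1, Id2 and Smad6 were higher in all 3, each without overlap with the WT-transfected samples. At an unadjusted p of 0.05, 5 of the 10 genes passed (Bmp2, Smad6, Id1, Id2 and Id4), against 11.2% of all genes. In direction 7 genes were higher and 3 lower, with a median difference of 0.29 against -0.00033 over all genes.

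Among the ligands, Bmp2 read 0.89, 0.65 and 0.52 in Tsk2-transfected and 1.42, 2.04 and 2.14 in WT-transfected fibroblasts. The difference was -1.18 ± 0.22 (SE; 95% confidence interval from -1.73 to -0.63; adjusted p = 0.220 by limma). Bmp4 read -2.69, -2.69 and -2.58 against -2.56, -2.42 and -2.43, which also did not overlap but differed by only -0.18 (adjusted p = 0.500 by limma). Among all genes, 10.2% were lower without overlap in this comparison, and 2 of the 10 genes were.

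None of the inhibitors passed in cells. Smad6 read 0.19, 0.02 and -0.06 in Tsk2-transfected and -0.16, -0.44 and -0.53 in WT-transfected fibroblasts, a difference of 0.43 ± 0.14 (SE; adjusted p = 0.378 by limma). Smad7 differed by 0.11 and Grem1 by -0.091, each with overlapping groups. Bambi differed by 0.43 as the mean of its 2 probes, but its probe without repeated values read 2.95, 3.06 and 3.06 against 3.21, 3.03 and 3.10, a difference of -0.090, so the sign for Bambi in cells depends on the probe.

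The Id genes were each higher on average in Tsk2-transfected fibroblasts. Id4 read 4.78, 4.63 and 4.29 against 3.63, 3.38 and 3.64, which is 2.03-fold higher (difference 1.02 ± 0.16, SE; adjusted p = 0.183 by limma), and its 2 probes gave 0.95 and 1.09. Id2 read -2.05, -2.31 and -2.33 against -2.78, -2.61 and -2.70, a difference of 0.47 ± 0.11 (adjusted p = 0.306 by limma), and its 3 probes gave 0.64, 0.70 and 0.053. Id1 read 0.08, 0.11 and 0.03 against -0.43, -0.37 and -0.24, a difference of 0.42 ± 0.094 (adjusted p = 0.279 by limma). Id3 differed by 0.16 and overlapped. Higher values without overlap were seen for 4 of the 10 genes, against 9.82% of all genes. In the marker lists, 0 genes of any list passed in fibroblasts.

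In skin the question was the same for the tissue of Tsk2 mice. Smad6 fell by 1.79 on the log2 scale and Bambi fell by 1.75, to levels 3.45-fold and 3.37-fold lower than in WT skin, so 2 of the 10 genes passed, where 2.91% of all genes did and 0.998% were lower. Smad7, the third feedback inhibitor, and Id4 were lower in every Tsk2 mouse than in any WT mouse but did not pass. The secreted antagonist Grem1 was the 1 gene with a higher mean in Tsk2 skin. In direction 9 genes were lower, and the median difference was -0.63 against 0.030 over all genes. Bulk skin cannot tell fewer cells of a type from less RNA per cell.

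Smad6 read -0.61, -0.92, -0.56 and -0.91 in Tsk2 replicates 1 to 4 and 1.50, 1.05, 1.54 and 0.06 in the WT mice, numbered likewise. WT replicate 4 lay far below the other WT mice, yet above every Tsk2 mouse. The fall was 1.79 ± 0.32 (SE; 95% confidence interval from -2.51 to -1.06; adjusted p = 0.0321 by limma). Without WT replicate 4 the difference was -2.11 (adjusted p = 0.00126 by limma), and without any other single mouse it lay between -1.85 and -1.62 with adjusted p from 0.0506 to 0.112 by limma, so the call was lost without any 1 of the other mice. Without Tsk2 replicate 1, 451 of all genes still passed. Without Tsk2 replicate 2, 3 or 4 or WT replicate 1, 2 or 3, 0 of all genes passed, so those losses are not particular to Smad6.

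Bambi's probe without repeated values read 2.97, 1.73, 1.93 and 1.98 in Tsk2 mice and 5.18, 5.33, 5.29 and 3.65 in WT mice. WT replicate 4 and Tsk2 replicate 1 lay nearest each other, and the groups did not overlap. This probe alone differed by -2.71 (adjusted p = 0.0371 by limma over all probes), the probe with repeated values alone by -0.79 (adjusted p = 0.485 by limma), and their mean by -1.75 ± 0.27 (SE; adjusted p = 0.0244 by limma). The call on the mean was kept without Tsk2 replicate 1 (adjusted p = 0.0279 by limma) or WT replicate 4 (0.0158) and lost without any other single mouse, where the adjusted p lay between 0.0568 and 0.0933. In those other runs 0 of all genes passed. Taking exact zeros as missing, which takes values from the probe with repeated values, also ended it (-2.05, adjusted p = 0.122 by limma).

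Smad7 read -0.19, -1.02, -0.20 and -0.37 in Tsk2 mice and 1.08, 1.45, 1.10 and 0.04 in WT mice. The groups did not overlap, and WT replicate 4 was again the lowest of the WT mice. The difference was -1.36 ± 0.32 (SE; adjusted p = 0.0603 by limma), and without WT replicate 4 it was -1.65 and passed (adjusted p = 0.00841 by limma). Grem1 read -1.23, -0.26, -0.80 and -0.98 in Tsk2 mice and -1.05, -1.62, -1.16 and -1.25 in WT mice, which overlap, and differed by 0.45 ± 0.23 (adjusted p = 0.282 by limma).

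Of the ligands, Bmp2 read 1.62, 2.03, 2.04 and 2.04 in Tsk2 mice and 3.19, 2.12, 2.98 and 2.16 in WT mice. The groups did not overlap, but WT replicates 2 and 4 lay just above the highest Tsk2 mouse. The difference was -0.68 ± 0.27 (SE; adjusted p = 0.182 by limma). Bmp4 overlapped between the groups and differed by -0.19 (95% confidence interval from -0.53 to 0.15).

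Among the Id genes only Id4 separated the mice. It read 5.26, 4.90, 5.02 and 4.04 in Tsk2 mice and 5.96, 5.97, 6.28 and 5.44 in WT mice, a difference of -1.11 ± 0.29 (SE; adjusted p = 0.0736 by limma), and it passed without WT replicate 4 (-1.26, adjusted p = 0.0390 by limma). Id3 read 0.36, -0.41, 0.78 and 0.22 in Tsk2 mice and from 0.75 to 0.89 in WT mice, with Tsk2 replicate 3 inside the WT range, and differed by -0.58 ± 0.24 (adjusted p = 0.192 by limma). Id1 spread from -0.61 to 0.58 over the Tsk2 mice, wider than the 0.14 to 0.43 of the WT mice, and differed by -0.32 (adjusted p = 0.466 by limma). Id2 differed by -0.24 (adjusted p = 0.518 by limma), and all 4 Tsk2 mice lay within the WT range. Lower values without overlap were seen for 5 of the 10 genes (Bmp2, Smad6, Smad7, Bambi and Id4), against 6.75% of all genes.

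**Figure D2:**
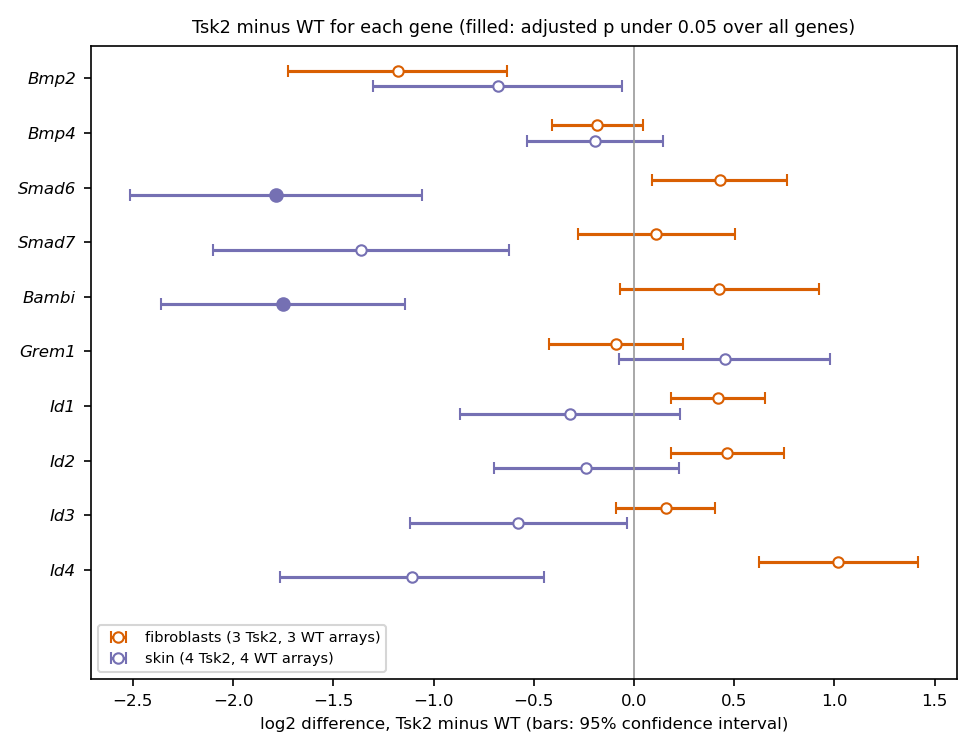
Log2 difference, Tsk2 minus WT (horizontal axis), for each gene in fibroblasts (orange, 3 against 3 arrays) and skin (violet, 4 against 4), with 95% confidence intervals; filled points passed an adjusted p of 0.05 over all genes. Only Smad6 and Bambi in skin are filled, and Id4 lies at 1.02 in fibroblasts and -1.11 in skin.

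The 8 mice were not alike within their groups. Among the WT mice, replicate 4 was the lowest for 6 of the 10 genes and the highest for 0. Among the Tsk2 mice, replicate 2 was the lowest for 7 genes and replicate 3 the highest for 5. Marker lists also varied between the mice. The mean of the 10 genes was 1.49, 1.32, 1.55 and 0.999 in WT replicates 1 to 4. In Tsk2 replicates 1 to 4 it was 0.64, 0.36, 0.82 and 0.51. For this mean and for the hair list, WT replicate 4 was the lowest WT mouse and Tsk2 replicates 2 and 4 the lowest Tsk2 mice. The rest of the order differed, and in the proliferation list WT replicate 4 was the highest WT mouse. A link between the lists and the 10 genes was not tested. The mean of 11 genes of the hair shaft and inner root sheath was 6.51, 6.37, 6.38 and 4.91 in the 4 WT mice, in the order of their numbers, and 4.17, 0.50, 2.60 and 0.39 in the 4 Tsk2 mice. All 11 were lower in Tsk2 skin, with a median difference of -4.07, and 7 of them passed the test, where 0.998% of all genes passed as lower. WT replicate 4, the lowest WT mouse for Smad6, Smad7 and Bambi's probe without repeated values, was also the WT mouse lowest in hair genes. For Bambi as the mean of its probes this mouse was at 2.98, above the WT mean of 2.83, since the other probe was highest there. The mean of 9 proliferation genes was -0.94, -2.39, -0.89 and -2.62 in the Tsk2 mice and from -1.25 to -0.73 in the WT mice, and 0 of 9 passed.

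Lists of other cell types stood higher in Tsk2 skin. The mean of 7 dermal fibroblast genes lay between 2.81 and 3.12 in Tsk2 mice and between 1.66 and 2.44 in WT mice. All 7 were higher, and 2 of them, Lum and Pdgfrb, passed the test, where 2.91% of all genes passed. The mean of 9 endothelial genes lay between 2.18 and 2.50 against 1.51 to 1.97, with 9 of 9 higher and 0 past the test. The lowest of these WT means was replicate 2, the array with the most exact zeros. There Emcn and Tie1 read 0, against 3.87 to 4.37 and 1.34 to 1.72 in the other WT mice. For smooth muscle and pericytes the mean of 6 genes lay between 2.26 and 2.82 against 1.74 to 1.95. Of these 5 were higher and 1 lower, and 1, Des, passed the test as higher. Melanocyte genes were lower in 5 of 5, with 0 past the test, and 0 of 9 dermal papilla and 0 of 8 epidermal genes passed. Genes of adipocytes (6 of 6), skeletal muscle (6 of 6), macrophages (5 of 5), T cells (4 of 4) and Schwann cells (3 of 3) were all higher on average in Tsk2 skin with 0 past the test. Of 5 sebaceous gland genes 3 were higher and 2 lower, and 1, Scd3, passed the test as higher. The part of these lists in the falls of Smad6 and Bambi was not tested.

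**Figure D3:**
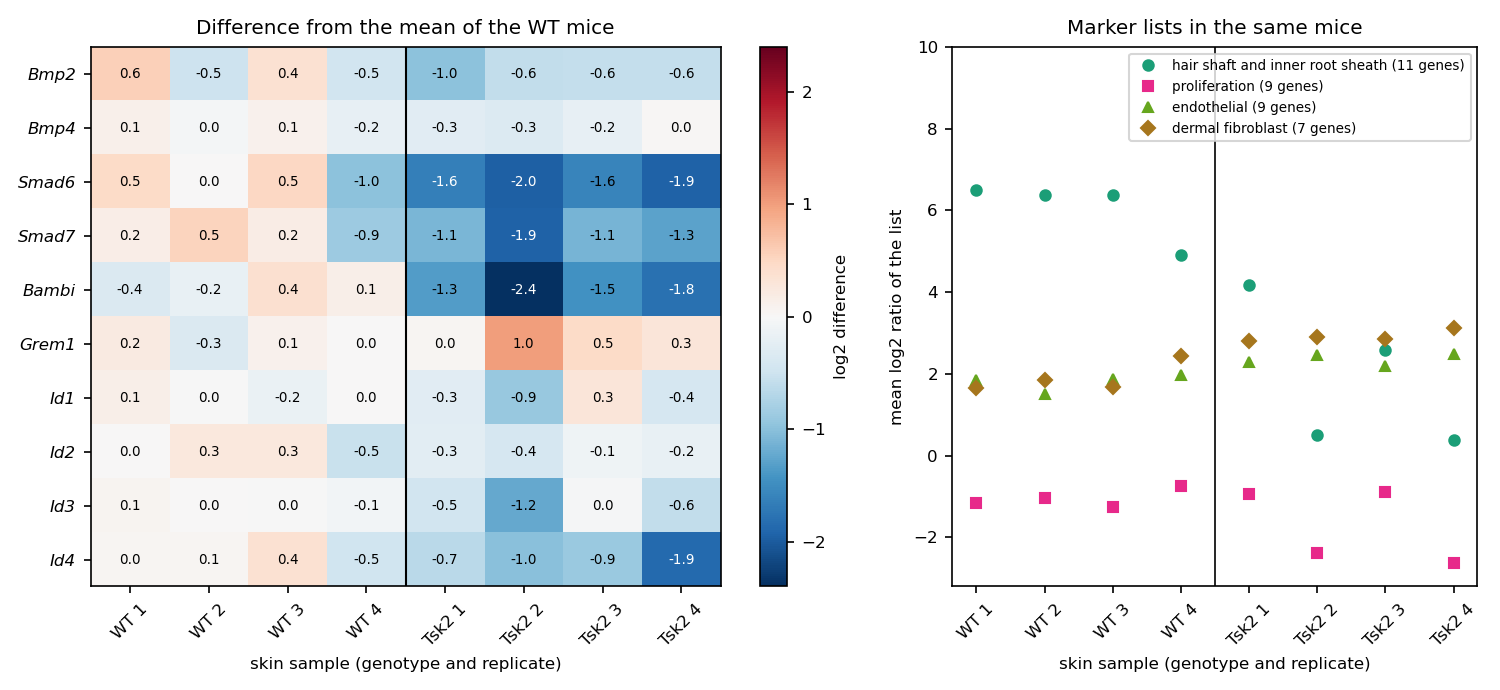
Left, log2 difference of each gene in each skin sample from the mean of the 4 WT mice, in colour and figures; right, mean log2 ratio of 4 marker lists in the same 8 mice. Smad6, Smad7 and Bambi are lower in all 4 Tsk2 mice, and the hair list runs from 4.91 to 6.51 in WT and from 0.39 to 4.17 in Tsk2 mice.

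Since the genes behaved differently in the 2 systems, the difference itself was tested over all 14 arrays, as the Tsk2 effect in skin minus that in fibroblasts. It passed for 3 of the 10 genes, all negative, where 1.40% of all genes passed and 0.497% were negative. Smad6 gave -2.21 ± 0.41 (SE; adjusted p = 0.0274 by limma), Bambi -2.18 ± 0.37 (0.0215) and Id4 -2.13 ± 0.38 (0.0248). For Bambi the probe without repeated values gave -2.62 (adjusted p = 0.0565 by limma over all probes), and exact zeros as missing gave -2.98 and ended the call (0.116). For Id4 the more variable of its 2 probes gave -2.02, which did not pass in a fit of the most variable probe of every gene (adjusted p = 0.0568 by limma) or over all probes (0.0765). The other Id4 probe gave -2.23 and passed over all probes (adjusted p = 0.0367 by limma). Smad6, read by 1 probe, did not pass over all probes (adjusted p = 0.0507 by limma). Smad7 gave -1.47 (adjusted p = 0.102), Id1 -0.74 (0.230), Id3 -0.74 (0.227) and Id2 -0.70 (0.183), and 7 of the 10 genes passed an unadjusted p of 0.05, against 17.5% of all genes.

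As means of their probes, 7 genes were higher in Tsk2-transfected fibroblasts and lower in Tsk2 skin, Smad6, Smad7, Bambi and all 4 Id genes, a pattern of signs held by 22.3% of all genes. The count is 6 where Bambi is read from its probe without repeated values (-0.090 in fibroblasts), and also 6 where Smad7 turns, after quantile normalization (-0.12) or without WT-transfected replicate 1 (-0.023). The ligands Bmp2 and Bmp4 were lower in both systems, and the differences of their effects were 0.50 (95% confidence interval from -0.34 to 1.34) and -0.0092 (from -0.40 to 0.38). Grem1 alone was lower in fibroblasts and higher in skin, and its 2 effects differed by 0.54 (from -0.11 to 1.20). Leaving out 1 fibroblast sample ended all 3 calls of the difference in 5 of 6 cases, the exception being Tsk2 replicate 3, without which Bambi and Id4 passed and Smad6 did not (adjusted p = 0.0613 by limma). Counting WT replicates 3A and 3B as 1 sample ended all 3 as well. Without a single skin mouse, Bambi passed in 8 of 8 cases, Id4 in 6 and Smad6 in 4. Without WT skin replicate 4 the 3 genes passed with adjusted p of 0.000126 for Smad6, 0.00773 for Bambi and 0.00377 for Id4.

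The rest of the pathway was read from 6 lists. In fibroblasts 0 of their 71 genes passed. In skin 4 of 71 passed, where 2.91% of all genes did, and 3 of these also passed the test of the difference between systems, where 1.40% did. Among 13 other BMP and GDF ligands 8 were higher and 5 lower in Tsk2 skin, and 1 passed the test, as lower. This was Bmp8a, which read 2.71, 0.32, 0.51 and 0.83 in Tsk2 mice and 5.46, 6.52, 5.23 and 3.97 in WT mice, a fall of 4.20 ± 0.64 (SE; adjusted p = 0.0244 by limma). Its groups lay far apart, but 25.0% of its skin values were repeated values, so the size is uncertain. Bmp7, another ligand, was lower in every Tsk2 mouse than in any WT mouse and did not pass (-1.15, adjusted p = 0.0594 by limma). The median difference of the ligand list was 0.034, close to the 0.030 of all genes.

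Among 16 other secreted inhibitors 1 passed the test in skin, as higher. Nbl1, a DAN-family antagonist of BMP ligands and a relative of Grem1, read 2.03, 2.72, 2.32 and 2.69 in Tsk2 mice and 0.74, 1.28, 0.78 and 1.29 in WT mice, a rise of 1.42 ± 0.22 (SE; adjusted p = 0.0256 by limma). The inhibitor genes were higher for 13 of 16, with a median of 0.25. Htra1, a secreted protease that acts on TGF-beta family signals, was higher by 0.86 (adjusted p = 0.0843 by limma). In fibroblasts Crim1, a membrane protein that binds BMPs, had the lowest p of the list and differed by 0.52 (adjusted p = 0.284 by limma).

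Among 16 other targets and mediators 1 passed the test in skin as higher and 1 as lower. Gata2, a transcription factor of blood and endothelial cells, read -0.55, -0.04, -0.10 and 0.15 in Tsk2 mice and from -1.63 to -1.04 in WT mice, a rise of 1.25 ± 0.20 (SE; adjusted p = 0.0261 by limma). Foxn1, the transcription factor missing in nude mice and needed for hair shaft differentiation, read 1.95, 1.04, 1.29 and 1.07 in Tsk2 mice and 4.15, 4.96, 4.16 and 2.37 in WT mice, a fall of 2.57 ± 0.50 (adjusted p = 0.0392 by limma). WT replicate 4 was the lowest of the WT mice for Foxn1, Bmp8a and Bmp7, as it was for hair genes. Of this list 11 of 16 were lower in skin, with a median of -0.50. In fibroblasts the kinase gene Sgk1 had the lowest p (0.85, adjusted p = 0.303 by limma), and 57.1% of its values were repeated values.

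None of the 11 receptors and co-receptors passed in skin, and their median was 0.30. The type I receptor gene Bmpr1a was lower (-0.57, adjusted p = 0.0875 by limma) and the endothelial co-receptor gene Eng higher (0.53, adjusted p = 0.127 by limma), and Acvr1, another type I receptor gene, led in fibroblasts with 0.31 (adjusted p = 0.461 by limma). None of the 12 Smads and regulators passed, with a median of -0.11. Ctdsp1, a phosphatase that acts on Smads, differed by 0.53 (adjusted p = 0.0792 by limma) and Smad1, which carries the BMP signal, by -0.55 (adjusted p = 0.137 by limma), while Tob1, a repressor of BMP Smads, led in fibroblasts with 0.21 (adjusted p = 0.435 by limma). The E protein genes Tcf3, Tcf4 and Tcf12, whose products the Id proteins bind, gave 0 calls of 3, with differences in skin of -0.24, 0.58 and -0.28. The effects in skin and fibroblasts differed past the test for Bmp8a (-4.68, adjusted p = 0.0223 by limma), Foxn1 (-3.30, 0.0390) and Nbl1 (1.52, 0.0280). Each of the 4 skin calls was kept without Tsk2 replicate 1 or WT replicate 4 and lost without any other single mouse, as for Bambi. In those other runs 0 of all genes passed, so the losses are not particular to these genes.

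**Figure D4:**
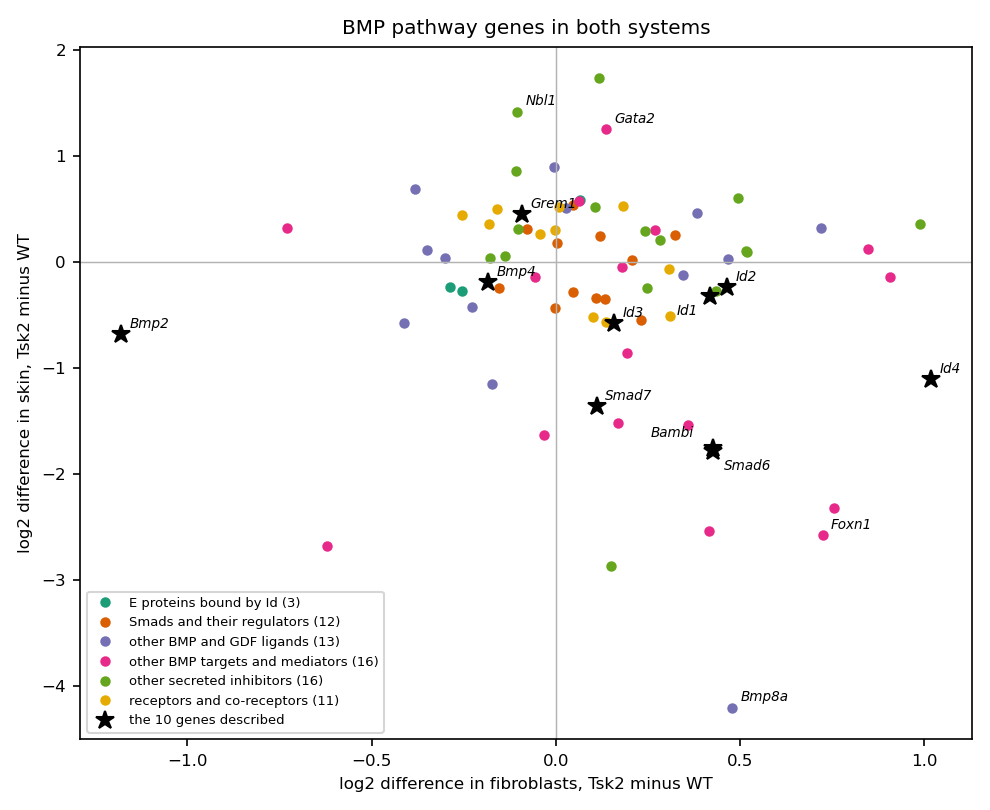
Log2 difference, Tsk2 minus WT, in fibroblasts (horizontal axis) and skin (vertical axis) for 71 genes of 6 BMP pathway lists (coloured points) and the 10 genes described (stars); named points outside the stars passed the test in skin. As means of their probes, Smad6, Smad7, Bambi and the Id genes lie right of and below 0, Bmp2 lies at -1.18 and -0.68, and Bmp8a lies lowest at -4.20.

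Genes of like pattern were sought over the 14 arrays, by the root mean square difference after each gene was centred on its own mean, among 4744 genes without repeated values. Smad6 lay nearest to Tubb3 (0.23), Lurap1l (0.25) and Rnf149 (0.30), where its own SD over the arrays was 0.81. Bambi, from the mean of its probes, lay nearest to Tubb3 (0.38), Edn1 (0.39) and Lurap1l (0.40), so both inhibitors share 2 of their 3 neighbours. Id4 lay nearest to Gas2l3 (0.33), Tmem64 (0.40) and Fdps (0.41). Id2 and Bmp4, which mainly separate skin from cells, share the neighbour Nrip1 (0.20 and 0.19) and lay nearest to Ncoa1 (0.17) and Plekhh3 (0.14), with Ctdspl (0.18) and Ctsh (0.17) next. Grem1, high in cells, lay nearest to H2bc18 (0.19), Igf2bp3 (0.22) and Elk3 (0.24). Bmp2 lay nearest to Sema7a (0.37), Plcd3 (0.41) and Cldn7 (0.43), and Smad7 to Cldn12 (0.33), Eif2s3x-ps1 (0.33) and Gm11520 (0.34). Id1 and Id3 varied little, with SDs of 0.34 each, and lay nearest to Purg (0.20), Phrf1 (0.20) and Tdp1 (0.21) and to Nat10 (0.16), Lyar (0.17) and Rbmxl1 (0.17). These distances are descriptions of 14 arrays and carry no test.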

How the data were processed

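Each array compared Cy5-labelled sample RNA with a Cy3-labelled universal mouse reference, per the labels. The deposited values are log ratios, read here as log2 of sample over reference, since they run from -9.55 to 10.97. No source used here names their base, direction, background correction, normalization or filters. Column medians lay between 0 and 0.043. The platform annotation gives 1 symbol to 32664 of the 41174 probes, several to 45 and lists none of the other 8465. A gene's value was the mean of its probes. Tests were two-sided limma fits (version 3.58.1, R 4.3.3, default lmFit and eBayes) with Benjamini-Hochberg adjustment over all 19532 genes at 0.05, Tsk2 comparisons using their own arrays and contrasts between systems on all 14. The fits were tested on simulated data. All 4 mice per genotype in the labels were used, although the series' design text counts 3. The genes, lists and tests were chosen with earlier results of these data known. All 10 genes were named, and of the pathway lists every gene past the threshold in a Tsk2 comparison plus the 2 of lowest p in skin and the 1 in fibroblasts. The 3 nearest genes were named for each. Alternatives covered centring, quantile normalization, exact zeros as missing, repeated values, probe choice, array weights, the variance prior, a replicate block, WT replicates 3A and 3B as 1 sample, 1 fit for all arrays and leaving out each array. Each probe on its own was added after seeing the data. Slides, scan dates and intensities were not used here, and the number of arrays limits the precision.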

Additional observations from a re-analysis of the deposited data

Results flagged for a closer look

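Of 54 groups of 4 skin samples examined, 4 held a value far from the other 3, and chance gives this in about 1 in 20 groups. Bmp2 in Tsk2 skin replicate 1 was at 1.62, with the other Tsk2 mice between 2.03 and 2.04. Bmp7 in WT skin replicate 4 was at 2.54, with the other WT mice between 3.45 and 3.60, and Smad1 in the same mouse was at 1.26, against 1.73 to 1.80. Tcf3 in WT skin replicate 2, the array with the most exact zeros, was at -0.56, against 0.12 to 0.21.

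The Tsk2 effect in skin minus that in fibroblasts passed the limma test for Smad6 (-2.21), Bambi (-2.18) and Id4 (-2.13), and among the pathway lists for Bmp8a (-4.68), Foxn1 (-3.30) and Nbl1 (1.52). For Foxn1 the fibroblast values are largely repeated values.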

How the results depend on the processing

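Over the single genes, 1223 values kept their direction and side of the threshold under an alternative, 120 lost their call, 25 gained one and 27 changed sign. In fibroblasts 0 of the 10 genes passed under any alternative run, while the count over all genes, 10, became 1 with zeros as missing, 5 with the most variable probe, 16 without repeated values, 16 with array weights, 0 with 3A and 3B as 1 sample and from 0 to 3 without 1 array. With the replicate block it was 0 (1812 at an unadjusted p under 0.05), and 3A and 3B as 1 sample left 1478 at that level. Deviations of like-numbered transfections had correlations of only 0.019, 0.008 and 0.017, so no shared deviation by number was seen. With so few arrays this cannot tell whether like-numbered samples were made together. In skin the number of the 10 genes past the test, 2, became 1 with zeros as missing, 4 in 1 fit for all arrays and 0 to 4 without 1 mouse, and all genes, 568, became 1123 without repeated values, 1342 with array weights, 2814 in 1 fit for all arrays and 0 to 1827 without 1 mouse (4 and 1827 without WT replicate 4). These 2 counts were 1 and 451 without Tsk2 replicate 1, and both were 0 without any other single mouse. For the difference of effects the number of the 10 genes, 3, became 0 with 3A and 3B as 1 sample and 0 to 5 without 1 array, and all genes, 273, became 1216 with array weights, 7 with 3A and 3B as 1 sample and 6 to 1492 without 1 array.

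Signs turned in fibroblasts for Smad7 (-0.12, quantile), Bambi (-0.090, most variable probe, repeated values left out or that probe alone), Sgk1 (-0.10, repeated values left out) and Ctdsp1 (-0.031, replicate block), in skin for Acvr1 (0.00029, quantile), Crim1 (-0.12, most variable probe), Sgk1 (-0.17, repeated values left out) and Tob1 (-0.060, array weights), and between the WT groups for Bmp2 (-0.46, quantile). Without 1 array the range crossed 0 in fibroblasts for Ctdsp1 (-0.015 to 0.13), Smad7 (-0.023 to 0.21) and Tcf4 (-0.036 to 0.13), in skin for Sgk1 (-0.025 to 0.34), Tob1 (-0.20 to 0.13) and Acvr1 (-0.16 to 0.0055), and for the Bmp4 difference of effects (-0.083 to 0.038). Smad6 kept its skin call in 9 of 16 alternatives and Bambi in 10 of 18. The causes were not tested.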
